A study of Mus musculus with 6 samples.

Results

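The nuclear genes of the mitochondrial respiratory chain were examined in mouse retina, as the 70 of 23420 genes in the deposited count table whose symbols begin with Nduf (a, b, c, s or v), Uqcr or Atp5. They encode subunits and assembly factors of complex I, subunits of complex III and of ATP synthase, and NDUFA4 and its paralog. RNA-seq was run on 6 libraries of CD1 retinas, 2 for each of 3 groups. Control retinas came from mice without treatment, light-exposed retinas from mice taken 4 days after 10000 lux for 1 h, and the third group had the same light and 45 mg/kg minocycline for 4 days. The study's methods give another strain, light intensity and number of minocycline days than the sample labels, and the labels are followed here. No vehicle injection of the control or light-exposed mice is given in the labels. Minocycline, a tetracycline antibiotic, dampens microglial reactivity, and the comparisons ask how the retina's transcripts respond to light and to the drug. The study's methods call the libraries of a group biological replicates, and the labels do not say which animals they came from, so p-values measure the spread between 2 libraries a group.

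Oxidative phosphorylation makes most of the ATP of a photoreceptor, whose inner segment is packed with mitochondria. Complex I oxidises NADH through a matrix arm and pumps protons through a membrane arm, complex III passes electrons from ubiquinol to cytochrome c, and ATP synthase uses the proton gradient to turn a ring of c subunits and a central stalk inside its F1 head, where ATP is made. The nuclear genes of these complexes are commonly controlled together, through NRF1, GABPA and the coactivators PGC-1α and PGC-1β.

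Libraries held 15205930 to 22856922 counts. Xist, which is transcribed from the inactive X chromosome of females, had 77778 counts in control 1 and 25 to 188 in the other 5 libraries. The Y-linked genes Ddx3y, Eif2s3y, Kdm5d and Uty had 11 counts together in control 1 and 6532 to 12858 elsewhere. Control 1 therefore stood apart within a group of 2, and the medians of the members and subgroups after light are also given without it. Levels are given as CPM, the counts of a gene scaled to a common library size after TMM normalization, and a change as a log2 fold change with its 95% interval from edgeR's quasi-likelihood test. A gene was called when its Benjamini-Hochberg adjusted p, over all tested genes, was under 0.05. The retinal label was borne out by the rod markers, among which Nrl, a transcription factor that sets rod identity, had 29986 to 68023 counts.

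The members took 0.605% and 0.491% of all counts in the control libraries, 0.614% and 0.617% in the light-exposed libraries, and 0.669% and 0.607% in the minocycline libraries. On the CPM scale their sum was 6539 and 5269 in control 1 and 2, 5703 and 5526 after light, and 6652 and 6315 with minocycline. The light-exposed sums fell between the 2 controls, and control 1 lay within the range of the minocycline libraries. Control 1 was above control 2 for 64 of 69 members with counts, with a median difference of 0.31 (log2), whereas 50.3% of 14789 genes were higher in control 1 and the median difference of all genes was 0.0019. The 5 exceptions were Atp5g2, Ndufab1, Ndufaf3, Ndufaf7 and Atp5sl. Between light 1 and light 2 the median difference of members was 0.053, and between minocycline A and B it was 0.096. The plot of relative levels by library shows this spread.

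**Figure D1:**
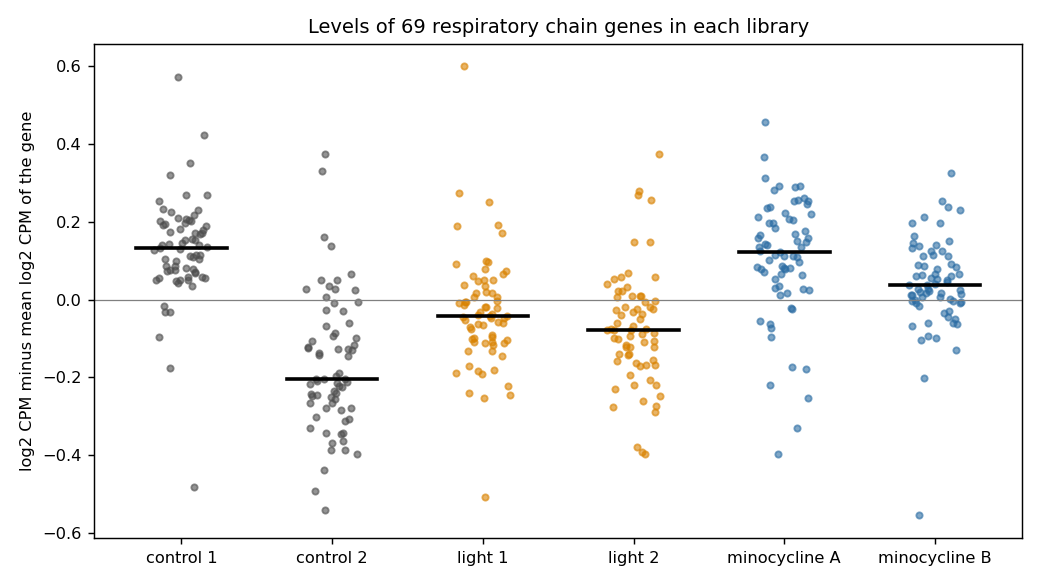
Each point is 1 of 69 members with counts, plotted as its log2 CPM (prior count 2) minus its own mean over the 6 libraries, and the black lines are medians. The medians are 0.13 in control 1 and -0.20 in control 2, -0.04 and -0.08 after light, and 0.12 and 0.04 with minocycline, so the gap between the controls is wider than the gap between other replicates.

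Per kilobase of transcript (the mean over 6 libraries, using the median length of a gene's annotated coding transcripts), the most abundant member was Ndufa4, first assigned to complex I and now placed with complex IV, at 963 CPM per kb. Atp5b, the catalytic beta subunit of ATP synthase, followed at 442 CPM per kb. The highest member of complex III was Uqcrh, the hinge protein, at 340 CPM per kb, and the lowest was Uqcrb at 44.6. In the complex I matrix arm the levels ran from 13.3 (Ndufa12) to 158 CPM per kb (Ndufa6), and in the membrane arm the highest was Ndufc2 at 233. Per kilobase of merged exons instead, Ndufa6 stood at 89.0, below Ndufv1 at 95.4 and Ndufa7 at 93.9. Assembly factors were lower, from 8.26 (Ndufaf1) to 39.3 CPM per kb (Ndufaf5). In the outer parts of ATP synthase the highest was Atp5k at 254 and the lowest Atp5l at 3.61 CPM per kb, and within F1 the lowest was Atp5d at 88. The ring gene Atp5g3 stood at 222 CPM per kb, while Atp5g2 and Atp5g1 stood at 1.56 and 1.08.

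Several of the lowest levels coincided with coding sequence that is shared with other annotated genes. Each 50-base window of a member's longest coding sequence was looked up in the transcripts of every other gene of the GENCODE vM21 annotation (GRCm38) on either strand. Of the 70 members, 35 had a shared window and 11 had more than 50% of windows shared. The 5 members with at least 90% of windows shared (Atp5g1, Atp5g2, Ndufb4, Ndufab1 and Atp5l) had 0.996 to 11.2 CPM per kb, whereas the median of the 35 members with no shared window was 68.5, although the lowest of those, Ndufa4l2, was at 0.612. Across the 69 members with counts, the share of windows had r = -0.53 and rho = -0.19 with log2 CPM per kb, as a description over genes that share libraries. Of the 40 genes that share windows with the 11 members, mostly processed pseudogenes, 1 had a row in the count table. How reads matching several places were counted is not given in the sources used here, so the levels of these members are uncertain, and whether the shared sequence lowered them was not tested.

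**Figure D2:**
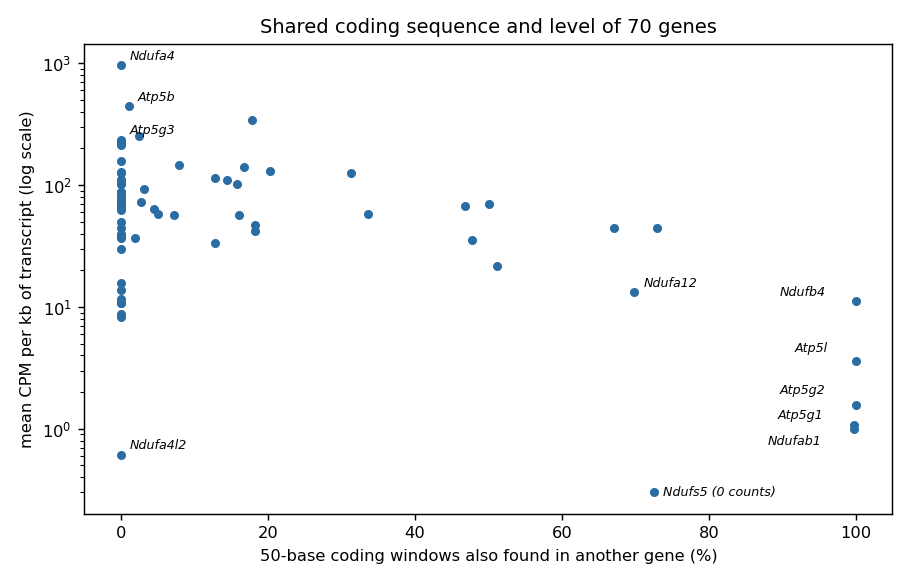
Each point is 1 of the 70 members, with the percent of its 50-base coding windows also found in another annotated gene on the x axis and its mean CPM per kb of transcript over 6 libraries on a log y axis. Ndufs5 has 0 counts and is drawn at the lower edge, and the 5 members at 90% or more lie at 11.2 CPM per kb or below.

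Ndufs5, a small membrane arm subunit (chr4:123712710-123718202, minus strand), had 0 counts in all 6 libraries, and it was not tested. A count of 0 allows up to 0.131 to 0.213 CPM in these libraries, which covers counting error only. The processed pseudogene BC002163 shares 72.5% of its windows and is the gene with a row in the table, where it had 12 and 5 counts in the controls, 16 and 19 after light, and 23 and 14 with minocycline. Atp5l, the g subunit of ATP synthase, had 37 and 23 counts in the controls, 38 and 35 after light, and 39 and 37 with minocycline, and all of its windows recur in Gm10221. Ndufb4, a membrane arm subunit, had 158 to 230 counts, and all of its windows recur in Ndufb4c. The first 240 bases of the coding sequence of each are shown to make the sharing visible, with capitals for bases in a shared window and lower case for bases in none.
Ndufs5: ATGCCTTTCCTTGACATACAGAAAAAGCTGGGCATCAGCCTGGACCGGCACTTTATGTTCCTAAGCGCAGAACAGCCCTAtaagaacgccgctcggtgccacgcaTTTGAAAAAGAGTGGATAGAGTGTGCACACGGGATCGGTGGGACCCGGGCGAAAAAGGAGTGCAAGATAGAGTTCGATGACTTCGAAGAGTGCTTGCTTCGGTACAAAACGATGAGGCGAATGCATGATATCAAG
Atp5l: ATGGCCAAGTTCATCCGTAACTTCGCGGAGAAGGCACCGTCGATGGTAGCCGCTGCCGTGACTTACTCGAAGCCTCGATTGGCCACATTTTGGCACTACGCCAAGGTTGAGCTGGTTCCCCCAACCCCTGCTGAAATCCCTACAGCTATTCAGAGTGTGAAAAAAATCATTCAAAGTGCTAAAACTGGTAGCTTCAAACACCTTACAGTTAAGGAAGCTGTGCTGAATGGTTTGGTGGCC
Ndufb4: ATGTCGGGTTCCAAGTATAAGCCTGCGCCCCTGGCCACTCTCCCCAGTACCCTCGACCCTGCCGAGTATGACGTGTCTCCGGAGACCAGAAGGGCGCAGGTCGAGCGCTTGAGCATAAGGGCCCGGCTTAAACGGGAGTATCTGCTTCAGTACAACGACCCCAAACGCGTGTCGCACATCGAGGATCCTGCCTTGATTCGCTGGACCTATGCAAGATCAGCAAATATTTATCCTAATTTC

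In light-exposed retinas compared with controls, no member passed the test, and the median change of the members was near 0. Of 68 members tested, 0 were called higher and 0 lower, while 7.52% of 14349 tested genes were called higher and 3.8% lower. At an unadjusted p under 0.05, 0 members were higher (16.5% of genes) and 2 were lower (12.4% of genes). DESeq2 called 0 and found 0 higher (13.5% of genes) and 2 lower (10.9% of genes) at an unadjusted p under 0.05. The median log2 fold change was -0.05 over members and 0.003 over all tested genes, with 23 members above 0 and 45 below, where 50.2% of genes were above 0. The 95% interval lay within a 2-fold change in either direction for 65 of 68 members, and for 64% of all genes. The 3 with wider intervals were Atp5g1, Atp5g2 and Atp5l, each of low count.

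The 2 members with an unadjusted p under 0.05 were Ndufaf5 and Ndufa10. Ndufaf5, an assembly factor that modifies a matrix arm subunit, had 51.9 and 45.3 CPM in the controls, 37.9 and 34.3 after light, and 48.8 and 56.5 with minocycline. Both light-exposed libraries were below all others. Its log2 fold change was -0.42 (interval -0.77 to -0.08), with an adjusted p of 0.101 by edgeR. Ndufa10, a membrane arm subunit, had 93.2 and 79.0 CPM in the controls, 69.9 and 60.3 after light, and 94.2 and 85.8 with minocycline. It too was lowest in both light-exposed libraries, with a log2 fold change of -0.40 (-0.74 to -0.06) and an adjusted p of 0.116 by edgeR.

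By subgroup, the medians of the log2 fold change in light against control were -0.03 for the matrix arm (16 tested), -0.05 for the membrane arm (18), -0.16 for assembly factors (8), 0.03 for complex III (8), -0.06 for F1 (5), -0.17 for the c-ring (3) and -0.04 for the other ATP synthase subunits (8). In the matrix arm the values ran from -0.19 (Ndufs3) to 0.28 (Ndufs4), an accessory subunit needed for the stability of the complex. In the membrane arm they ran from Ndufa10 to 0.32 (Ndufa3), and among assembly factors from Ndufaf5 to 0.09 (Ndufaf7). In complex III the values ran from -0.22 for Uqcrc1, a core subunit, to 0.45 for Uqcr11, a small subunit. Uqcr11 had 26.2 and 17.3 CPM in the controls, 26.6 and 32.8 after light, and 26.2 and 25.1 with minocycline, and control 1 and light 1 hardly differed. Atp5e was the highest of F1 at 0.28. Among the other ATP synthase genes the lowest was Atp5s, grouped here by its name, at -0.28, and Atp5f1 was the highest at 0.08. With 1 library left out, these values moved by more than 1.5 times for several genes, from 0.179 (without control 2) to 0.773 (without control 1) for Uqcr11, from 0.0282 to 0.57 for Atp5e, from 0.0897 to 0.578 for Ndufa3 from 0.123 to 0.434 for Ndufs4 and from -0.303 to -0.0958 for Ndufs3, with the same 2 libraries at the extremes. Without control 1 the subgroup medians were 0.15 for the matrix arm, 0.12 for the membrane arm, 0.24 for complex III, 0.07 for F1 and 0.22 for the other ATP synthase subunits, and -0.16 for assembly factors and -0.27 for the c-ring. Without control 2 they were -0.18 for the matrix arm, -0.20 for the membrane arm, -0.16 for complex III, -0.20 for F1, -0.24 for the other ATP synthase subunits, -0.26 for assembly factors and -0.09 for the c-ring. The medians of the 5 groups first named thus took opposite signs with either control alone. That of the assembly factors was below 0 in both, and was 0.08 with total library size.

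The 2 light-exposed libraries were both above both controls for 3 members (4.41%, against 30.6% of genes) and both below for 10 (14.7%, against 30.3% of genes). The 3 were Uqcr11, Ndufs4 and Ndufa3, of which Ndufa3 stood at 33.4 CPM in both control 1 and light 1 after rounding. The 10 included Ndufaf4, Ndufaf5, Ndufaf6, Ndufa10 and Uqcrc1. The direction of the members' median was not stable. It was 0.11 without control 1 (51 of 69 members above 0) and -0.20 without control 2 (10 of 69). With total library size in place of TMM it was 0.18 (61 of 68 members above 0), where the median of all genes was 0.24. Across the 68 members the change in light had r = -0.37 and rho = -0.33 with log2 transcript length, against -0.04 for both over 14233 genes, and the members share libraries and depth. Whether transcript length or RNA quality had a part was not tested.

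**Figure D3:**
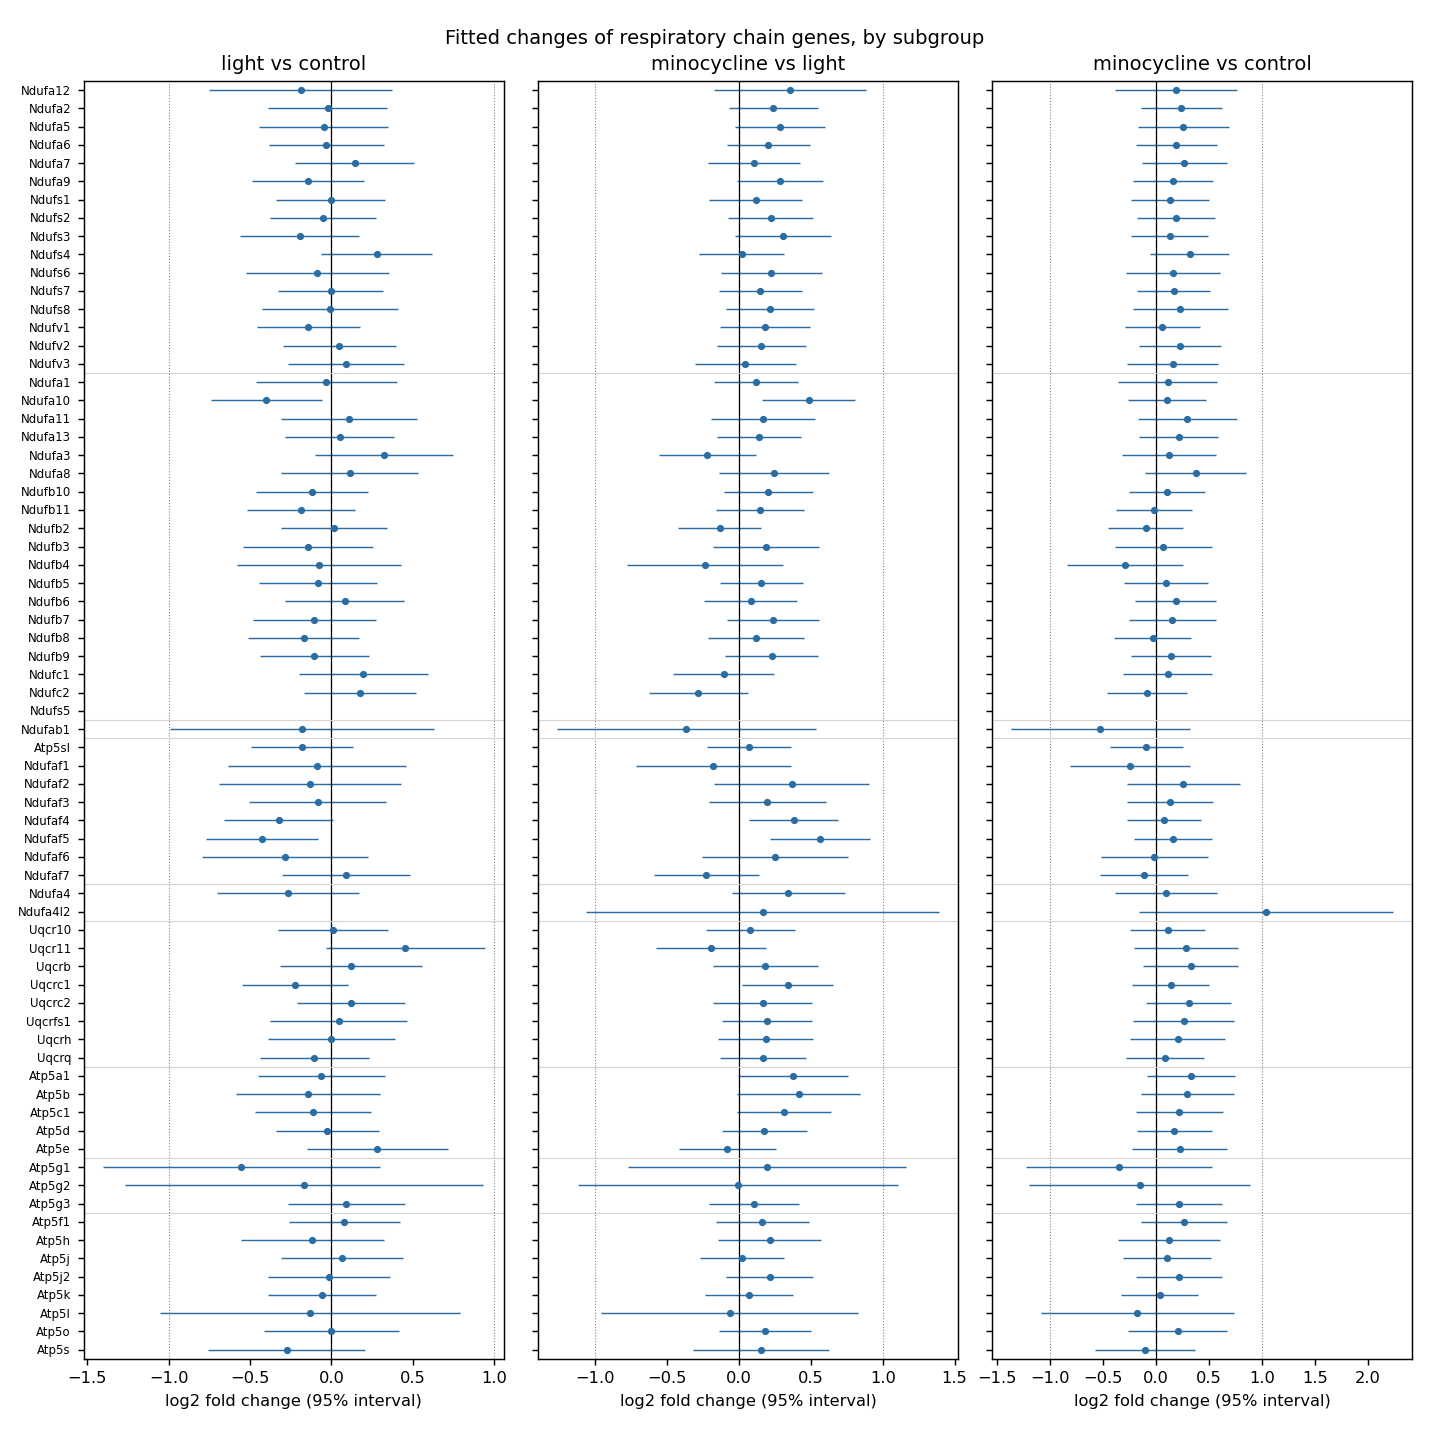
Log2 fold changes (points) with 95% intervals (lines) of the members in 3 comparisons, ordered by subgroup with grey lines between them, where dotted lines mark a 2-fold change. Nearly all intervals cross 0, and in minocycline against light 57 of 69 points lie above 0.

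In minocycline-treated retinas compared with light-exposed retinas, most members had slightly higher values, but no member passed the test. Of 69 members tested, 0 were called higher and 0 lower, while 0.0136% of 14750 genes were called higher and 0.0407% lower. At an unadjusted p under 0.05, 4 members were higher (9.04% of genes) and 0 lower (12.1% of genes), and DESeq2, which called 0, found 8 higher (11.6%, against 8.39% of genes) and 0 lower (10.4% of genes). The median log2 fold change was 0.17 over members and 0.006 over all genes, and 57 members were above 0 against 50.8% of genes. With total library size the members' median was 0.0016, with 35 of 69 above 0, and that of all genes was -0.17. Both minocycline libraries were above both light-exposed libraries for 39 members (56.5%, against 26.1% of genes) and below for 7 (10.1%, against 28.7%). The interval lay within a 2-fold change for 65 of 69 members (65.3% of genes), and the others were Ndufa4l2, Atp5g1, Atp5g2 and Ndufab1. This comparison shares its light-exposed libraries with the comparison of light and control, so a low value after light enters both.

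With TMM, the 16 tested members of the matrix arm had positive values, with a median of 0.21, from 0.02 (Ndufs4) to 0.36 (Ndufa12). With total library size 10 of 16 were above 0, and with the upper quartile or with any 1 library left out 15 of 16. The 5 F1 subunits had a median of 0.31, from -0.08 for Atp5e to 0.42 for Atp5b. Atp5a1, the alpha subunit, had 564 and 469 CPM in the controls, 503 and 483 after light, and 664 and 600 with minocycline, where both minocycline libraries were the highest. Its log2 fold change was 0.38 (-0.01 to 0.76, adjusted p = 0.244). The medians were 0.14 for the membrane arm, 0.22 for assembly factors, 0.18 for complex III, 0.16 for the other ATP synthase subunits and 0.11 for the c-ring. The c-ring median was -0.16 without minocycline B, and without minocycline A the medians were 0.07 for the other ATP synthase subunits and 0.09 for the membrane arm. With total library size the medians of the c-ring, the membrane arm and the other ATP synthase subunits were -0.06, -0.03 and -0.01. Those of complex III, the matrix arm, the assembly factors and F1 were 0.002, 0.04, 0.05 and 0.14. The lowest were Ndufc2 at -0.28 in the membrane arm, Ndufaf7 at -0.23, Uqcr11 at -0.19, Atp5l at -0.07 and Ndufab1, the mitochondrial acyl carrier protein, at -0.37. Atp5h, at 0.22, was the highest of the other ATP synthase subunits. With 1 library left out several of these extremes moved by more than 1.5 times, for Atp5h from 0.103 (without minocycline A) to 0.327 (without minocycline B), for Ndufa12 from 0.216 to 0.491 with the same libraries, for Uqcr11 from -0.348 (without light 1) to -0.0533 (without light 2), for Ndufab1 from -0.625 (without minocycline A) to -0.145 (without minocycline B) and for Ndufc2 from -0.39 (without light 1) to -0.186 (without minocycline A).

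The 4 members with an unadjusted p under 0.05 were Ndufaf5, Ndufa10, Ndufaf4 and Uqcrc1. Ndufaf5 had a log2 fold change of 0.56 (0.22 to 0.91, adjusted p = 0.0999) and Ndufa10 of 0.48 (0.16 to 0.81, adjusted p = 0.117). Ndufaf4, an assembly factor, had 47.1 and 42.7 CPM in the controls, 36.8 and 34.7 after light, and 46.0 in both minocycline libraries, with a log2 fold change of 0.38 (0.07 to 0.69, adjusted p = 0.163). Uqcrc1 had 183 and 166 CPM in the controls, 153 and 145 after light, and 194 and 179 with minocycline, with a log2 fold change of 0.34 (0.02 to 0.66, adjusted p = 0.207). In all 4 the light-exposed libraries were the lowest 2 of the 6. These 4 were picked by their p in this comparison, which uses the same light-exposed libraries. Of all tested genes, 30.3% had both light-exposed libraries below both controls, and 26.1% had both below both minocycline libraries.

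**Figure D4:**
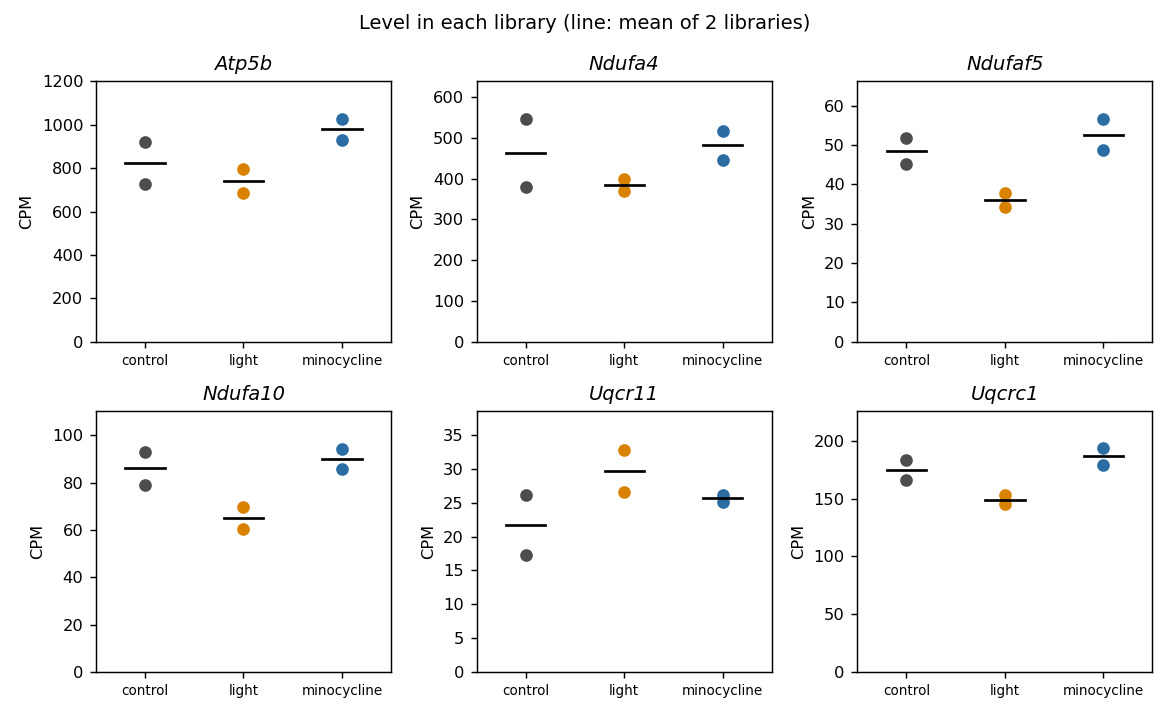
CPM of 6 members in each library, with 2 points and a mean line per group and axes that start at 0. Ndufaf5, Ndufa10 and Uqcrc1 are lowest in both light-exposed libraries, Uqcr11 is lowest in control 2, and the controls of Atp5b and Ndufa4 span the light-exposed libraries in part.

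In minocycline-treated retinas compared with controls, no member passed the test either. Of 69 members, 0 were called higher (0.162% of 14181 genes) and 0 lower (0% of genes). At an unadjusted p under 0.05, 0 were higher (5.39% of genes) and 0 lower (1.62% of genes). DESeq2 called 0, and at an unadjusted p under 0.05 it found 0 higher (4.13% of genes) and 0 lower (1.71% of genes). The median was 0.16 over members and 0.02 over all genes, with 55 members above 0 against 52.8% of genes. Without control 1 it was 0.31 and without control 2 it was 0.01. Both minocycline libraries were above both controls for 10 members (14.5%, against 15.9% of genes) and below for 5 (7.25%, against 24% of genes). The interval lay within a 2-fold change for 64 of 69 members (71.3% of genes), and the others were Ndufa4l2, Atp5g1, Atp5g2, Atp5l and Ndufab1. All 8 complex III genes were above 0, from 0.09 (Uqcrq) to 0.33 (Uqcrb), as were all 16 of the matrix arm, from 0.06 (Ndufv1) to 0.32 (Ndufs4), and all 5 of F1, from 0.18 (Atp5d) to 0.34 (Atp5a1). Without control 2 these were 6 of 8, 12 of 16 and 4 of 5, and without minocycline A 15 of 16 of the matrix arm were. In the membrane arm the values ran from -0.29 (Ndufb4) to 0.38 (Ndufa8), and among assembly factors from -0.24 (Ndufaf1) to 0.26 (Ndufaf2). With 1 library left out, Ndufa8 ran from 0.166 (without control 2) to 0.622 (without control 1), Uqcrb from 0.127 to 0.556, Ndufs4 from 0.177 to 0.476, Atp5a1 from 0.213 to 0.468 and Atp5d from 0.0906 to 0.261 with the same libraries, and Ndufb4 from -0.469 (without minocycline B) to -0.169 (without minocycline A). Ndufv1 ran from 0.0308 to 0.0706. Because the members share libraries, genes of the same sign in a subgroup are not independent.

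Atp5b (chr10:128083273-128090391, plus strand) served as the reference gene of the study's PCR measurements. It had 919 and 725 CPM in the controls, 796 and 687 after light, and 1028 and 931 with minocycline. The minocycline libraries were above all others, and the controls overlapped the light-exposed libraries. Its log2 fold change was -0.14 (-0.59 to 0.30, adjusted p = 0.673) in light against control, 0.42 (-0.01 to 0.85, adjusted p = 0.247) in minocycline against light and 0.30 (-0.14 to 0.74, adjusted p = 0.742) in minocycline against control. None passed the test, and the last value was 0.14 without control 2 and 0.47 without control 1. Over the 6 libraries its coefficient of variation was 15.7%, and 56 of 69 members had a lower one, from 5.86% for Ndufv1, with a median of 11.8%.

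The ring genes Atp5g1, Atp5g2 and Atp5g3 encode the same mature c subunit behind different targeting sequences. Atp5g3 had 169 and 131 CPM in the controls, 159 and 160 after light, and 177 and 162 with minocycline. Atp5g1 had 4.19 and 2.89 CPM in the controls, 1.93 and 2.85 after light, and 2.09 and 3.34 with minocycline, and Atp5g2 had 11 to 19 counts per library. The changes of Atp5g1 and Atp5g2 had intervals that reached past a 2-fold change in each comparison. Ndufa4 had 547 and 380 CPM in the controls, 400 and 369 after light, and 447 and 517 with minocycline. Its paralog Ndufa4l2, known as a hypoxia-induced gene, had 5 and 5 counts in the controls, 15 and 9 after light, and 18 and 12 with minocycline, so the controls were the lowest 2 libraries. It was left out of light against control by the filter on low counts, and in minocycline against control its log2 fold change was 1.04 (-0.16 to 2.24, adjusted p = 0.742).

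The X-linked members Ndufa1 and Ndufb11 were looked at beside the female transcript of control 1. Ndufa1 had 54.8 CPM in control 1 and 36.1 in control 2, and 44.0 to 47.8 in the other libraries. Ndufb11 had 134 and 115 CPM in the controls, and 104 to 120 in the others. Both were highest in control 1, where 64 of 69 members were above control 2, and neither passed the test in any comparison.

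Of 10 regulators of mitochondrial biogenesis, 3 fell after light and 0 rose, while 3.8% of all tested genes were called lower and 7.52% higher. Ppargc1a encodes PGC-1α and had 127 and 108 CPM in the controls, 54.6 and 46.3 after light, and 102 and 123 with minocycline. The light-exposed libraries were below all others, with a log2 fold change of -1.22 (-1.56 to -0.87, adjusted p = 0.0062). Ppargc1b, its relative, had 218 and 257 CPM in the controls, 159 and 122 after light, and 165 and 209 with minocycline, with a log2 fold change of -0.75 (adjusted p = 0.024). Nrf1, a transcription factor of respiratory chain genes, had 91.7 and 77.0 CPM in the controls, 60.2 and 48.8 after light, and 67.1 and 80.4 with minocycline, with a log2 fold change of -0.63 (adjusted p = 0.0345). The other 7 had values from -0.50 (Gabpb1) to 0.35 (Esrra), none past the test, and Tfam, which packages mitochondrial DNA, had 0.08. In minocycline against light, Ppargc1a had a log2 fold change of 1.17 (0.80 to 1.55) with an adjusted p of 0.0691 by edgeR and 3.04e-07 by DESeq2, and none of the 10 was called in the edgeR fit of these 4 libraries. Ppargc1a was called in edgeR fits with no filter (adjusted p = 0.00318), with all 6 libraries (0.026), without light 1 (0.0193) and without minocycline A (0.00997). The call of Ppargc1a in light was lost without control 1 (-1.10, adjusted p = 0.0624). Those of Ppargc1b and Nrf1 were lost at total library size (-0.52 and -0.39, adjusted p = 0.0714 and 0.125), without control 1 (-0.88 and -0.50, adjusted p = 0.0681 and 0.116), without control 2 (-0.64 and -0.75, adjusted p = 0.141 and 0.0927) and without light 2 (-0.57 and -0.48, adjusted p = 0.301 and 0.408), and that of Nrf1 also with all 6 libraries in one fit (-0.63, adjusted p = 0.0508). In bulk retina, fewer cells of a type and less RNA per cell cannot be told apart.

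**Figure D5:**
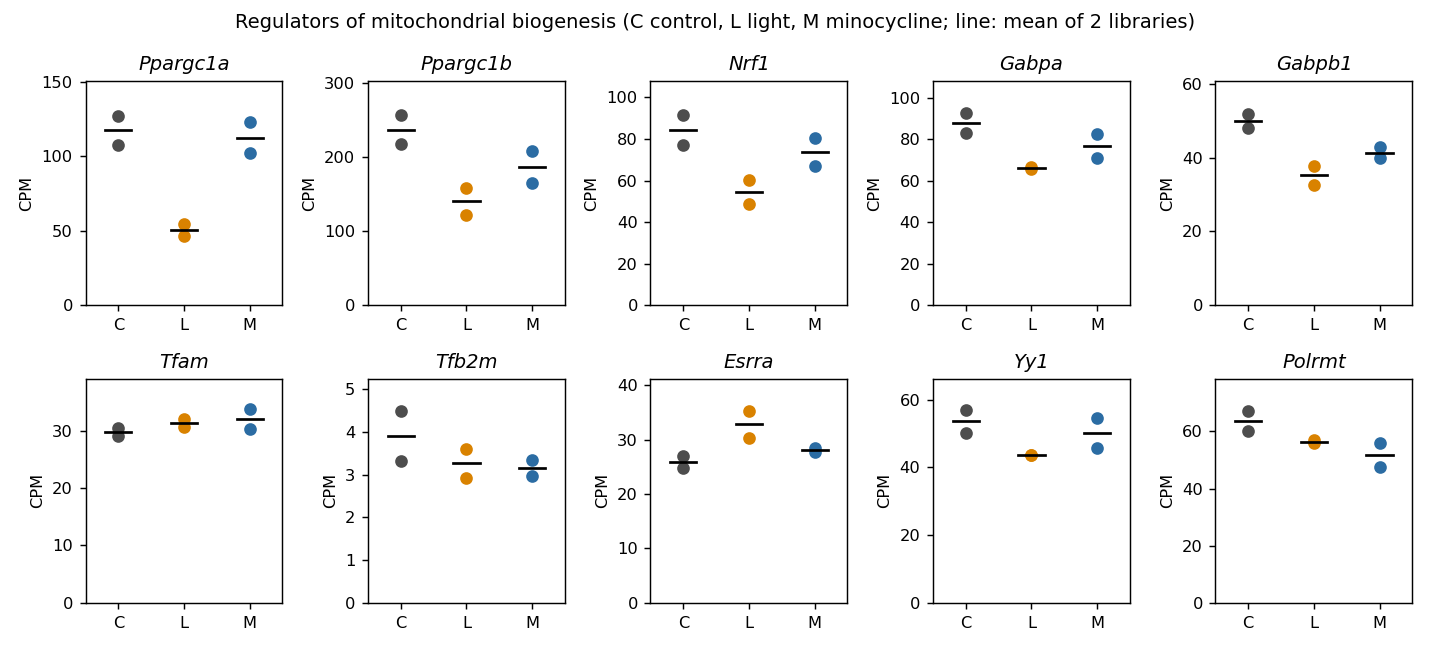
CPM of 10 regulators of mitochondrial biogenesis in each library, with 2 points and a mean line per group (C control, L light, M minocycline) and axes that start at 0. In 7 of the 10 both light-exposed libraries are below both controls (Ppargc1a, Ppargc1b, Nrf1, Gabpa, Gabpb1, Yy1 and Polrmt), as in 30.3% of all tested genes, and the first 3 passed the test.

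Markers of retinal and other cells were summed for comparison, and the shares of all tested genes called were 7.52% higher and 3.8% lower in light against control, and 0.0136% higher in minocycline against light. The summed CPM of 9 rod markers was 54140 and 46110 in the controls, 34860 and 25120 after light, and 49750 and 52210 with minocycline, and 1 of 9 (Nrl) was called lower in light. The 7 microglia markers summed to 27.1 and 32.6 CPM in the controls, 226 and 700 after light, and 56.0 and 26.5 with minocycline, with 3 of 7 called higher in light. Of the Müller cell markers 2 of 6 and of the bipolar cell markers 3 of 6 were called higher in light. Corneal epithelium markers summed to 2.11 to 14.8 CPM in the other libraries and to 188 and 264 with minocycline, and 1 of 4 (Dsp) was called higher with minocycline, against light and against control. Smooth muscle markers summed to 5.19 to 17.8 and to 64.4 and 323, and 0 of 4 were called. The cone markers summed to 1416 to 1846 CPM and the pigment epithelium markers to 60.5 to 191, with 0 called in each. No marker was at 0 in every library, and Best1 of the pigment epithelium had at most 1 count. The part of these cells in the values of the members and of the regulators was not tested.

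Other mitochondrial genes were counted in lists outside the rule. By edgeR, 0 genes were called in any comparison among 4 of complex II, 12 of complex IV and cytochrome c, 9 other genes of complex III and ATP synthase, 6 other complex I assembly genes, 12 of the TCA cycle and 10 of the mitochondrial membranes. At an unadjusted p under 0.05, edgeR found 5 of the 53 higher in minocycline against light, a share near the 9.04% of all genes, and 0 in either direction in the other comparisons. DESeq2 called 1 of the 53 (Slc25a5, an ADP/ATP carrier, chosen after its value was seen) higher in minocycline against light and none in the other comparisons. Their medians of the log2 fold change ran from -0.15 (complex I assembly) to 0.13 (complex II) in light against control and from 0.02 (complex I assembly) to 0.20 (TCA cycle) in minocycline against light. None of the 13 mitochondrially encoded subunits had a row in the count table under the symbols searched, so they were not analysed here.

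Promoters were described for the 60 members found in the RefSeq promoter table (GRCm38.p6), from 250 bases before to 50 after the start. NRF1's motif GCGCATGCG, on either strand, was in the promoters of 9 of 60 members (15%) and of 1.95% of 27025 genes, and YY1's motif AAGATGGCG was in 8 (13.3%) and 1.64%. In the bases before the start alone, the NRF1 motif was in 6 of 60 (10%) and 1.64%, and the YY1 motif in 2 of 60 (3.33%) and 0.711%. The ETS motif CCGGAAGT, bound by GABPA, was in 4 (6.67%) and 4.31%, and the Sp1 motif GGGGCGGGG in 11 (18.3%) and 12.9%. Any of the 4 was in 29 (48.3%) and 18.9%. None of the 4 motifs contains another, but the NRF1 motif nearly repeats on the other strand, so a single site can match on both. The 9 members with the NRF1 motif had a median log2 fold change of -0.13 in light against control (from -0.42 to 0.45) and of 0.16 in minocycline against light (from -0.19 to 0.56). They were Atp5g2, Atp5k, Atp5l, Ndufa8, Ndufa11, Ndufaf4, Ndufaf5, Uqcr11 and Uqcrc1. A match describes letters only.

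Of the 4 members with an unadjusted p under 0.05 in minocycline against light, Ndufaf4, Ndufaf5 and Uqcrc1 held the NRF1 motif, and Ndufa10 held the Sp1 motif. They were singled out after their values were seen. The promoters of the first 3 are shown 5′ to 3′ in the direction of the gene, with the NRF1 motif in capitals, and all 3 are on the plus strand.
Ndufaf5 (chr2:140170396-140170695): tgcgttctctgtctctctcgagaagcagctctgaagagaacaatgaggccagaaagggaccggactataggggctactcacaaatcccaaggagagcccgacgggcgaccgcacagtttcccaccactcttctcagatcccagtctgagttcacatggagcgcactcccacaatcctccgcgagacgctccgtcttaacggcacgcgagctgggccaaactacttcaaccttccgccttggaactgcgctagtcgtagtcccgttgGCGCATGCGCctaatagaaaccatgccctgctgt
Ndufaf4 (chr4:24897833-24898132): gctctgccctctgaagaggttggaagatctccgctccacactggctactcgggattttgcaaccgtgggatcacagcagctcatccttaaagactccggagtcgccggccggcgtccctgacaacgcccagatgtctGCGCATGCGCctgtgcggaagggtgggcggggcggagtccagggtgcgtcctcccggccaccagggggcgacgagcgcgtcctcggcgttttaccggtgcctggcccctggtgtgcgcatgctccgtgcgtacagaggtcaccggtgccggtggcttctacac
Uqcrc1 (chr9:108936398-108936697): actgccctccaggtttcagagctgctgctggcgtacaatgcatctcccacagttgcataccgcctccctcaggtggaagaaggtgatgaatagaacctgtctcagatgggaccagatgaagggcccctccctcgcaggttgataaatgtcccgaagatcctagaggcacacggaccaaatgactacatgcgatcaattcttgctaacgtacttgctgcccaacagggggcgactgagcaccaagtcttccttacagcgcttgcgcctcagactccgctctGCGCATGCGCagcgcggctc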

How the data were processed

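Retinal RNA of 6 libraries was sequenced as stranded mRNA. The authors aligned the reads with STAR to mm10 (GRCm38) and deposited counts per gene, which are whole numbers without scaling although their data statement calls them normalized. DESeq2 is also named in the submitters' processing notes. The gene annotation, the tool versions and the use of strand in counting are not given in the sources used here. No value column was left out (0 unused). Both minocycline columns share a header with the same replicate number, so these libraries are called A and B.

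For each pair of groups, genes kept by filterByExpr were scaled by TMM and tested with the robust quasi-likelihood F test of edgeR 4.0.16 (R 4.3.3), with Benjamini-Hochberg adjustment. DESeq2 1.42.0 was an alternative. Scripts were tested on simulated data. With 2 libraries against 2, an exact permutation test of one value cannot go below a two-sided p of 0.333. The members and gene lists were chosen with earlier results of these data known. Named genes were any called members, the extremes of each subgroup in change and in level per length, Atp5b, the paralogs, the X-linked members and members that were filtered out or had 0 counts. All 70 members were matched to GENCODE vM21, 69 by symbol and 1 by synonym. Of the members, 28 overlap another annotated gene, 5 on the same strand. One rod marker of the list is not reported here.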

Additional observations from a re-analysis of the deposited data

How the results depend on the processing

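Of the counts of called members, 0 in each direction and comparison, each of the 12 or 13 alternative fits per comparison gave 0. The stricter thresholds, an adjusted p of 0.01 or a log2 change of 2, can only give 0 here and say nothing about stability. At an unadjusted p under 0.05 the fits found 0 to 8 members in light against control, 0 to 8 in minocycline against light and 0 to 11 in minocycline against control. The largest counts were 8 higher with total library size (11.8%, against 28.0% of genes), 8 higher by DESeq2 (11.6%, against 8.39%) and 11 higher without control 1 (15.9%, against 6.11%), in that order of comparisons. With total library size in place of TMM the median of all genes shifted to 0.238 in light against control and to -0.167 in minocycline against light, and that of members to 0.182 and 0.0016. Relative to all genes the members' medians were then -0.0556 and 0.169, against -0.0574 and 0.163. Leaving out 1 library moved the members' median between -0.198 (without control 2) and 0.109 (without control 1) in light against control, between 0.135 and 0.200 in minocycline against light, and between 0.0134 (without control 2) and 0.311 (without control 1) in minocycline against control. In leave-one-out fits the lone library is assumed to vary like the pair. The cause of these shifts was not tested.

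Of 736 refits of single named members, 0 passed the threshold and 42 changed sign, all of values that had not passed. With total library size, light against control turned to 0.0902 (Atp5b), 0.0623 (Atp5g2), 0.206 (Ndufa1), 0.05 (Ndufab1), 0.049 (Ndufb11), 0.0394 (Ndufs3) and 0.0113 (Uqcrc1), minocycline against light to -0.064 (Atp5g3), -0.0548 (Ndufa1), -0.0257 (Ndufb11) and -0.156 (Ndufs4), and minocycline against control to 0.023 (Ndufb11) and 0.0136 (Ppargc1a). With the upper quartile, Ndufa1 turned to 0.0095 in light against control and Ndufs4 to -0.0068 in minocycline against light. With no filter, Atp5g2 turned to 0.0016 in minocycline against light. Leaving out 1 library gave, for genes whose sign it changed, values of -0.313 to 0.0289 (Atp5b), -0.0805 to 0.242 (Atp5f1), -0.566 to 0.167 (Atp5g2), -0.0859 to 0.277 (Atp5g3), -0.309 to 0.292 (Ndufa1), -0.513 to 0.0109 (Ndufa4), -0.386 to 0.00209 (Ndufab1), -0.0299 to 0.205 (Ndufaf7) in light against control, and -0.226 to 0.0504 (Atp5e), -0.19 to 0.513 (Atp5g1), -0.359 to 0.382 (Atp5g2), -0.283 to 0.139 (Atp5l), -0.299 to 0.733 (Ndufa4l2), -0.0481 to 0.0565 (Ndufs4) in minocycline against light, and -0.429 to 0.193 (Atp5g2), -0.477 to 0.208 (Atp5l), -0.155 to 0.434 (Ndufa1), -0.136 to 0.377 (Ndufa4), -0.456 to 0.0044 (Ndufaf1), -0.119 to 0.0897 (Ndufb11), -0.0298 to 0.211 (Uqcrq), -0.205 to 0.0997 (Ppargc1a) in minocycline against control. The refits of Ppargc1a, Ppargc1b and Nrf1 were added after seeing the data.

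The deviations of same-numbered control and light libraries had r = -0.0079 over 14349 genes and -0.383 over the 68 members. With 2 libraries a group, this cannot show whether same-numbered libraries share more than a number. With the replicate block, 0 members were called in light against control and their median was -0.0514. No paired analysis was possible because both minocycline columns carry the same header with the same replicate number, in either comparison with that group. Before the start only, the YY1 motif was in 3.33% of member promoters and 0.711% of genes. On TMM-scaled library size, the members' share of counts after light was 0.570% and 0.553%. The intervals of Atp5g1, Atp5g2, Atp5l, Ndufab1 and Ndufa4l2, all of low count, reach past a 2-fold change in at least 1 comparison, and with 2 libraries a group changes smaller than the intervals could not be detected.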
